A study of Mus musculus with 24 samples.

Results

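The genes described here are the 37 that carry MHC class I and class II antigen presentation in the mouse, of 52636 gene models listed for each library. They were chosen by gene symbol, through the GENCODE M21 annotation of the Ensembl identifiers, and the 2 arms were kept apart. The class I arm holds 25 genes (H2 heavy chains, B2m, the peptide supply and loading genes and the transactivator Nlrc5) and the class II arm 12 (H2 class II chains, the H2-DM and H2-O chains, Cd74 and the transactivators). All 37 passed the filter on low counts. PolyA RNA was sequenced from primary bone marrow-derived macrophages, which are grown from marrow precursors and here came from C57BL/6 wild-type mice (WT) or mice with a knockout of Ninj1 (KO), a membrane protein of plasma membrane rupture. Cells were left in media or treated with Pam3, by which a synthetic lipopeptide ligand of TLR1 and TLR2 is usually meant. The 4 groups of 6 libraries are called WT_media, KO_media, WT_Pam3 and KO_Pam3. The knockout is the only allele the labels name, and Pam3 the only agent; the sources used here give no dose, duration, age, deleted part of Ninj1 or growth factor. Whether the 6 libraries per group stem from different animals or cultures is not stated, and p-values then measure only how far these samples spread, a spread that may be technical.

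MHC class I molecules show peptides made inside the cell to CD8 T cells. Proteasomes cut proteins, the TAP transporter moves the peptides into the endoplasmic reticulum, ERAP1 trims them, and tapasin with calreticulin, calnexin and ERp57 holds the heavy chain and beta-2 microglobulin ready for loading. MHC class II molecules show peptides from endocytosed protein to CD4 T cells: the invariant chain CD74 occupies the groove until H2-DM exchanges its remnant for a peptide, and H2-O restrains H2-DM. NLRC5 drives class I genes and CIITA class II genes, both through promoter boxes bound by the RFX complex (RFX5, RFXAP, RFXANK), CREB-family factors and NF-Y. Macrophages present on both arms, and interferon-gamma raises both.

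Each library held between 31302011 and 40663152 counts, and no pair of them held identical values. Ninj1 itself ranged from 289 to 325 CPM (counts scaled to library sizes adjusted with TMM factors) in WT_media and from 151 to 179 CPM in KO_media, and from 646 to 1145 CPM in WT_Pam3 against 409 to 479 CPM in KO_Pam3, so no KO library overlapped the WT libraries of its treatment. The WT libraries are labelled male and the KO libraries carry no sex, but Xist stood at 233 to 796 CPM in all 24, and Kdm5d, Eif2s3y, Uty and Ddx3y together had 28 counts over all of them. Macrophage markers summed to 26160 to 38010 CPM per library. The defining dendritic cell markers Zbtb46, Xcr1, Clec9a and Cd209a averaged under 1 CPM in every group, as did the B cell markers Cd79a and Ms4a1, and the T and NK cell markers Cd3e, Cd3g, Ncr1 and Klrb1c. Other markers of these lists were present: in WT_media the 7 B cell markers summed to 232 to 255 CPM, led by Ighm (199.5 ± 8.27 CPM, SD, n = 6) and Cd22 (38.1 ± 1.19 CPM), the 7 T and NK cell markers to 38.5 to 43.6 CPM, nearly all Cd4 (39.5 ± 1.94 CPM), and the 9 dendritic cell markers to 20.67 to 22.99 CPM, with Itgax at 11.9 ± 0.692 CPM. In WT_Pam3 these sums were 55.4 to 69.6, 13.0 to 15.7 and 38.1 to 42.2 CPM, and their part in the results was not tested. A pair of libraries stood apart (WT_Pam3 replicate 5 and KO_media replicate 1). For the first, 38.6% of all 14435 tested genes lay above and 34.8% below all 5 other WT_Pam3 libraries; for the second, 19.8% lay above and 17.1% below its group. Counts of the 37 genes called between genotypes are therefore given with and without them, as are other values where a call or count changed.

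The promoters of 4 genes are given with letter matches to boxes of the kind named above, and were chosen for the genes on which the results below turn. B2m encodes the light chain of every class I molecule, Tap1 a half-transporter of TAP, H2-M2 the heavy chain gene with the widest range here, and H2-Aa a class II alpha chain. Each line gives the 250 bases upstream of the transcription start, 5′ to 3′ on the gene's strand, from RefSeq on GRCm38.p6: B2m at chr2:122147437-122147686 (plus strand), Tap1 at chr17:34187306-34187555 (plus), H2-M2 at chr17:37483555-37483804 (minus) and H2-Aa at chr17:34287824-34288073 (minus). Capitals mark matches on either strand to the interferon-stimulated response element core (ISRE, a pair of GAAA blocks with 2 bases between them), the X2 box core (TGACG), the Y box core (CCAAT) and the NF-kB site.
B2m: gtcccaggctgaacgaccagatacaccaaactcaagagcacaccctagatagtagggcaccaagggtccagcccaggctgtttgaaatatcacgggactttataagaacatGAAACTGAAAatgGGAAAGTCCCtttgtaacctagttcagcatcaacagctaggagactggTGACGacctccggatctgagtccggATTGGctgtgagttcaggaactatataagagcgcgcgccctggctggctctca
Tap1: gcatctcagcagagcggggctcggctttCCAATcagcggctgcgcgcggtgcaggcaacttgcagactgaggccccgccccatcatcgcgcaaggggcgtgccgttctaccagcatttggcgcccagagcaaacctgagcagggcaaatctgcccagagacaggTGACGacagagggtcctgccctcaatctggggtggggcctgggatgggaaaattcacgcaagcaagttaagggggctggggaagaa
H2-M2: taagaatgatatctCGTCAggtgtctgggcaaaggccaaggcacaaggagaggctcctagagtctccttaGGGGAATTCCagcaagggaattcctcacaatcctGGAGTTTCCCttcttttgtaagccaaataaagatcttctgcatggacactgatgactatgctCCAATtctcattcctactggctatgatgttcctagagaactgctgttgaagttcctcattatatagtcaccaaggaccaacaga
H2-Aa: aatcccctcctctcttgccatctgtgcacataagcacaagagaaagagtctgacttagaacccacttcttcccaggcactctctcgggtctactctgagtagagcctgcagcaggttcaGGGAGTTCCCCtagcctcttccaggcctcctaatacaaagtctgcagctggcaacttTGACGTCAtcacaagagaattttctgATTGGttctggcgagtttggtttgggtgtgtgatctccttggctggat
In B2m the ISRE core began 139 bases before the start, an NF-kB match 126 bases, an X2 core 78 bases and a Y core 53 bases before it. H2-Aa held an X2 core on each strand, overlapping in TGACGTCA and beginning 74 and 71 bases before the start, and a Y core 48 bases before it; its 2 NF-kB matches overlap. H2-M2 held 2 NF-kB matches, 180 and 146 bases before the start. Its X2 core began 236 bases and its Y core 84 bases before the start. In Tap1 the Y core began 222 bases and the X2 core 86 bases before the start, the reverse of the order in B2m and H2-Aa. Over the whole RefSeq windows of 300 bases, which reach 50 bases past the start, 29 of the 37 genes had an entry (21 class I, 8 class II). The Y core was in 16 of 21 class I and 8 of 8 class II genes, beside 41.1% of all 27025 genes in the table (37.4% of its 32851 windows, since a gene can have several). The X2 core was in 13 of 21 and 1 of 8 (23% of all genes), the NF-kB site in 10 of 21 and 1 of 8 (9.55%), and the ISRE core in 5 of 21 (H2-T22, H2-T23, B2m, Erap1, Psme1), with no match in the 8 class II genes (3.99%). H2-Aa was the only class II gene with an X2 core or an NF-kB match. The windows of Tap1 and Psmb9, which are transcribed in opposite directions, share 275 bases. A match of letters is a description and not a binding site.

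Reads of 50 bases were counted only where they aligned uniquely, so genes with near-identical relatives could lose reads. Of the H2-T22 transcripts' 50-base windows, 46.5% were found in no other gene's transcripts and 31.3% were shared with H2-T10. Among the H2-Q genes the unique share was 63.6% for H2-Q4, 65.0% for H2-Q6 and 73.6% for H2-Q7. It was 77.4% for H2-DMb1 and 74.1% for H2-DMb2, which share windows with each other, and 71.7% for Psme2, whose remaining windows are those of Psme2b. Tapbp had 76.8%, with 20.3% shared with Gm19412. These 8 genes are uncertain for that reason. H2-K1 had 90.4%, H2-D1 87.2%, and H2-Ab1, H2-Eb1, Cd74 and B2m 100%. The libraries do not mark strand, so reads of Rfxank and Nr2c2ap (29.0% of the Rfxank windows) or Rfx5 and B230398E01Rik (22.3%) cannot be told apart where the models overlap.

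**Figure D1:**
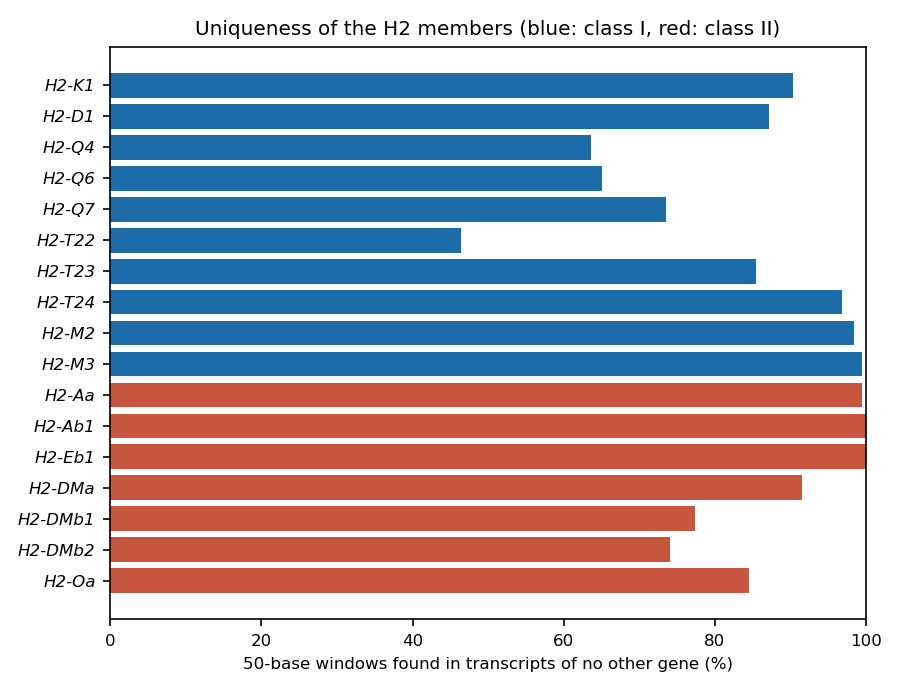
Share of 50-base transcript windows found in no other gene (percent, x axis) for the 17 H2 genes, class I in blue and class II in red. H2-T22 has the smallest share (46.5%), and H2-Ab1 and H2-Eb1 reach 100%.

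Levels of different genes were compared only on the authors' length-scaled values (size-factor-adjusted RPKM, nRPKM). In WT_media the light chain B2m stood at 2247 ± 139 nRPKM, the classical heavy chains H2-D1 at 1173 ± 27.0 and H2-K1 at 673 ± 7.43 nRPKM (SD, n = 6), and these 3 did not overlap. Cd74, the invariant chain, followed at 267 ± 17.8 nRPKM, then the chaperone Calr at 203 ± 10.4 and tapasin, Tapbp, at 136 ± 3.79 nRPKM. Canx, which encodes the chaperone calnexin, had 85.0 ± 4.72 nRPKM and Pdia3, which encodes ERp57, 107 ± 5.38 nRPKM, which placed them 10th and 8th among the members. The class II chains H2-Aa (114 ± 9.36 nRPKM), H2-Ab1 (86.8 ± 4.61) and H2-Eb1 (78.6 ± 5.58) lay close together, and the last 2 overlapped. Their order turned over with reads per kilobase of annotated exon (RPKM from the counts), at 45.3 for H2-Aa, 54.5 for H2-Ab1 and 63.8 for H2-Eb1, so it depends on the length used. Nonclassical H2-T23, the Qa-1 heavy chain, stood at 81.7 ± 3.16 nRPKM, while H2-Q7 and H2-Q6 had 1.95 ± 0.202 and 1.87 ± 0.146 nRPKM and could not be ordered. The transactivators were low: Nlrc5 8.47 ± 0.904, Rfxap 4.26 ± 0.225, Ciita 3.10 ± 0.123, Rfxank 3.05 ± 0.125 and Rfx5 2.67 ± 0.186 nRPKM. H2-Oa (0.552 nRPKM) and H2-M2 (0.142 nRPKM) closed the order. With that exon-based value in place of nRPKM, the rank of a gene in WT_media moved by at most 7 places (Psmb9). Over the 4 groups it moved by at most 8 (H2-Aa in WT_Pam3), with a median of 1.

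Pam3 raised every one of the 25 class I genes in WT and in KO (edgeR quasi-likelihood test, Benjamini-Hochberg adjusted p under 0.05), although H2-D1 and Pdia3 in both genotypes and H2-T23 in KO reversed when scaled by library size only. Among all tested genes 40.6% were called higher in WT and 40.2% in KO. The median log2 fold change of the arm was 1.74 in WT and 1.42 in KO, while that of all genes was -0.05 and -0.07. In WT all 25 genes had 6 Pam3 libraries above all 6 media libraries (32.5% of all genes), and in KO 24 did (36.0% of all genes), the exception being H2-T23 with 4 of 6. For H2-T23, KO_media replicate 1 stood at 204 CPM and the other KO_media libraries at 141 to 156 CPM. The KO_Pam3 libraries lay between 196 and 226 CPM. Class I genes took 1.04% ± 0.0169 of all counts in WT_media and 1.45% ± 0.123 in WT_Pam3, and 1.14% ± 0.0418 in KO_media and 1.41% ± 0.0338 in KO_Pam3 (SD, n = 6). WT_Pam3 replicate 5 stood at 1.70% and the other WT_Pam3 libraries at 1.36% to 1.42%. KO_media replicate 1 stood at 1.22% and the other KO_media libraries at 1.11% to 1.14%. In bulk RNA of this kind, more cells of a type and more RNA per cell cannot be told apart, nor fewer cells and less RNA.

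**Figure D2:**
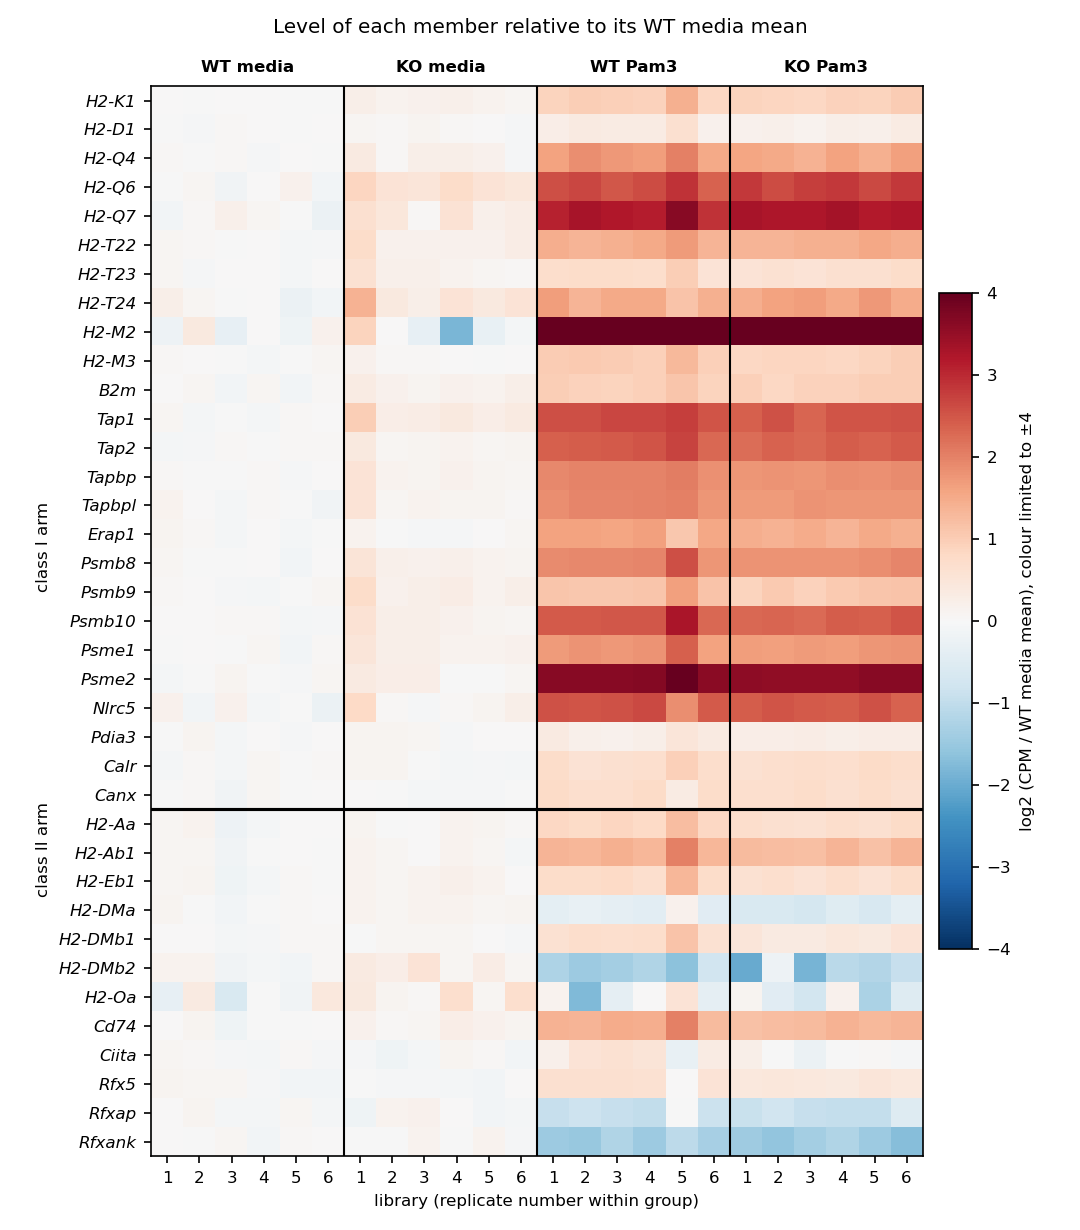
Level of each of the 37 genes (rows) in each of the 24 libraries (columns) as log2 of its CPM over its WT_media mean, with colour limited to ±4; H2-M2 goes beyond that limit. All 25 class I rows turn red after Pam3 on this scale (H2-D1, Pdia3 and, in KO, H2-T23 reverse with library size only), the class II rows split, and WT_Pam3 replicate 5 and KO_media replicate 1 stand out as single columns.

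The widest response was that of H2-M2, a nonclassical heavy chain. It lay between 0.198 and 0.327 CPM in WT_media (median 0.235) and between 0.0691 and 0.464 CPM in KO_media (median 0.218), or 3 to 18 counts per media library. After Pam3 it lay between 48.0 and 54.3 CPM in WT (median 52.3) and between 29.5 and 34.6 CPM in KO (median 32.8). The media libraries of the genotypes overlapped, and after Pam3 every KO library lay below every WT library. The log2 fold change with Pam3 was 7.67 (SE 0.115, adjusted p = 2.43e-28) in WT and 7.11 (SE 0.119, adjusted p = 2.59e-27) in KO. H2-M2 was the lowest of the 37 genes per length in WT_media and reached 30.3 nRPKM in WT_Pam3, close to the 28.2 nRPKM of Tap1 in WT_media.

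Among the other heavy chains the response was strongest in H2-Q7 and H2-Q6 and weakest in H2-D1. The H2-Q7 medians were 3.40 CPM in WT_media and 30.2 CPM in WT_Pam3, against 4.35 and 31.6 CPM in KO. Those of H2-Q6 were 4.39 and 26.4 CPM in WT and 6.37 and 30.5 CPM in KO. Their log2 fold changes were 3.23 and 2.61 in WT and 2.86 and 2.15 in KO. For both genes every Pam3 library lay above every media library of the same genotype. H2-Q4 (1.74 in WT, 1.35 in KO), H2-T22 (1.48 and 1.13), H2-T24 (1.44 and 0.95), H2-M3, which presents formylated peptides (1.05 and 0.83), H2-K1 (1.01 and 0.74) and H2-T23 (0.74 and 0.39) followed. H2-D1 lay between 2686 and 2861 CPM in WT_media (median 2771) and between 3112 and 4360 CPM in WT_Pam3 (median 3470). Its groups did not overlap, yet its log2 fold change was 0.36 (SE 0.0543, adjusted p = 1.04e-06), and 0.18 (SE 0.0542, adjusted p = 0.00426) in KO. The light chain B2m rose by 0.96 in WT and 0.75 in KO on the log2 scale.

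Genes of peptide supply and loading all rose, by amounts that ranged widely. Psme2, a subunit of the PA28 proteasome activator, lay between 8.87 and 10.1 CPM in WT_media and between 116 and 193 CPM in WT_Pam3. Its log2 fold change was 3.78 (SE 0.107) in WT and 3.42 (SE 0.105) in KO, and its partner Psme1 changed by 1.86 and 1.47. The immunoproteasome subunits Psmb10, Psmb8 and Psmb9 rose by 2.61, 2.03 and 1.20 in WT and by 2.13, 1.60 and 0.72 in KO. TAP1 and TAP2 form the peptide transporter, and Tap1 rose by 2.63 and 2.03 and Tap2 by 2.47 and 2.21. Tapasin (Tapbp, 1.96 and 1.61), the peptide editor Tapbpl (1.93 and 1.57), the trimming peptidase Erap1 (1.52 and 1.42) and the transactivator Nlrc5 (2.45 and 2.22) also rose. The values of the general chaperones and ERp57 were 0.72 and 0.69 for Calr, 0.66 and 0.70 for Canx and 0.30 and 0.23 for Pdia3, so that in KO Calr and Canx lay beside Psmb9.

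The standard subunits that the immunoproteasome subunits replace rose with Pam3 too, and the per-length ratio moved up in one pair and down in another. Psmb10 over Psmb7 was 1.81 ± 0.0940 in WT_media and 4.79 ± 0.763 in WT_Pam3 (6.30 in replicate 5 and 4.23 to 4.76 in the other 5), and 2.06 ± 0.271 in KO_media and 4.33 ± 0.258 in KO_Pam3. Psmb9 over Psmb6 went the other way, with 0.238 ± 0.0152 in WT_media, 0.162 ± 0.0137 in WT_Pam3, 0.308 ± 0.0509 in KO_media and 0.171 ± 0.0104 in KO_Pam3 (nRPKM ratios, SD, n = 6). For both pairs the media and Pam3 libraries of a genotype did not overlap. Psmb8 over Psmb5 moved up like Psmb10 over Psmb7, with 40.4 ± 4.09 in WT_media, 66.1 ± 5.40 in WT_Pam3, 43.9 ± 3.25 in KO_media and 64.7 ± 7.23 in KO_Pam3, but its level is uncertain because 46.8% of the Psmb5 windows are shared with Gm3375. Of 17 proteasome genes outside the immunoproteasome, 17 were called higher in WT and 16 in KO (40.6% and 40.2% of all genes), with medians of 1.16 and 1.04.

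**Figure D3:**
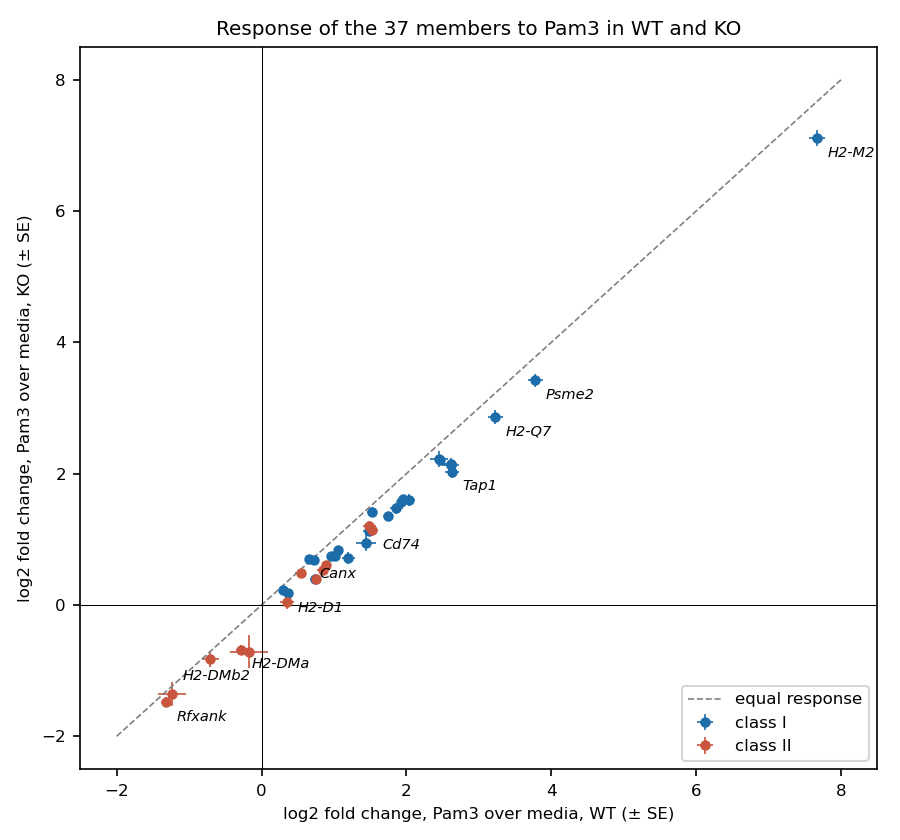
Log2 fold change with Pam3 in WT (x axis) and in KO (y axis) for the 37 genes, with standard errors and a dashed line of equal response; class I in blue, class II in red. H2-M2 sits at 7.67 and 7.11, and 36 of the 37 points lie below the line.

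The class II arm split with Pam3, as did all tested genes, so the split alone does not set the arm apart. Whether its counts differ from the shares of all genes given below was not tested. In WT 7 of 12 genes were called higher and 4 lower (40.6% and 44.2% of all genes), with a median log2 fold change of 0.44; in KO 6 were higher and 5 lower (40.2% and 44.8%), with a median of 0.22. In WT 5 genes had all Pam3 libraries above and 2 had all below the media libraries (32.5% and 36.4% of all genes), and in KO 6 and 4 did (36.0% and 39.7%). The invariant chain gene Cd74 rose by 1.52 in WT and 1.14 in KO. Among class II chain genes, H2-Ab1 rose by 1.49 and 1.20, H2-Aa by 0.89 and 0.61 and H2-Eb1 by 0.85 and 0.53. These are RNA values, and surface protein was not measured. Cd74 lay between 378 and 459 CPM in WT_media (median 425) and between 1020 and 1722 CPM in WT_Pam3 (median 1123), and between 439 and 511 CPM in KO_media (median 466) and between 959 and 1102 CPM in KO_Pam3 (median 1022). Treated and untreated libraries did not overlap in either genotype. The next highest WT_Pam3 library after replicate 5 stood at 1168 CPM.

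The peptide exchange genes did not move as one. H2-DMb1, the beta chain of H2-DM, rose by 0.75 in WT and 0.40 in KO (the latter reversed with library size only), whereas H2-DMa, its alpha chain, fell by 0.28 in WT (adjusted p = 0.00145) and by 0.68 in KO on the log2 scale. H2-DMa lay between 38.9 and 45.1 CPM in WT_media and between 30.8 and 34.2 CPM in 5 WT_Pam3 libraries, with replicate 5 at 47.6 CPM, above the media range. H2-DMb2, another beta chain gene of low level (1.34 ± 0.112 CPM in WT_media), fell by 1.24 and 1.36. H2-Oa, the alpha chain of H2-O, ran from 6 to 47 counts per library, and its log2 fold change was -0.17 in WT (adjusted p = 0.545, overlapping groups) and -0.71 in KO (adjusted p = 0.0117, 4 of 6 libraries below all of KO_media). Of the RFX subunits, Rfx5 rose by 0.54 and 0.48 (the latter reversed with library size only), while Rfxap fell by 0.71 and 0.82 and Rfxank by 1.32 and 1.48. Rfxank lay between 11.49 and 13.15 CPM in WT_media and between 4.38 and 6.08 CPM in WT_Pam3. Ciita rose by 0.35 in WT (adjusted p = 0.00208, reversed with library size only), with 5 libraries above all of WT_media and replicate 5 below them, and stood at 0.04 in KO (adjusted p = 0.723).

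The Pam3 calls stayed the same in number with any 1 of the 24 libraries left out (25 class I and 11 class II genes in each genotype). TMM factors moved with the treatment, from 1.17 to 1.20 in media and from 0.813 to 0.862 after Pam3. With scaling by library size only, the median of all genes shifted by -0.52 in WT and -0.48 in KO, and the share of all calls that were higher dropped to 28.4% in WT (47.9% with TMM) and to 29.2% in KO (47.3%). On that scale H2-D1 (-0.17 in WT, -0.31 in KO) and Pdia3 (-0.22 and -0.25) were lower with Pam3, and H2-T23, H2-DMb1 and Rfx5 in KO and Ciita in WT changed sign without passing the test. Their rise therefore holds relative to the other genes and not per library total. H2-Aa and H2-Eb1 in KO and Rfx5 in WT kept their sign there and did not pass. Of the 36 calls in each genotype, 32 in WT and 29 in KO kept direction and call.

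In media, the class I arm stood higher in KO macrophages. Of 25 genes 6 passed the test, all higher, and 1.92% of all genes were called higher. The median log2 fold change of the arm was 0.19, that of all genes 0.00, and 22 of 25 values were positive. In 12 class I genes every KO_media library lay above every WT_media library, which held for 2.16% of all genes. With all libraries the largest difference among the class I genes called was in H2-T24, which lay between 18.6 and 26.0 CPM in WT_media (median 21.95) and between 26.2 and 58.2 CPM in KO_media (median 30.5), a log2 fold change of 0.64 (SE 0.136, adjusted p = 0.00746). The groups met but did not overlap, and replicate 1 of KO_media was far above the 26.2 to 32.2 CPM of the other 5.

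H2-Q6 lay between 3.96 and 4.89 CPM in WT_media (median 4.39) and between 5.93 and 7.99 CPM in KO_media (median 6.37), a log2 fold change of 0.60 (SE 0.0892, adjusted p = 0.000202) with no overlap. Tap1 lay between 89.2 and 97.7 CPM in WT_media (median 94.3) and between 112 and 184 CPM in KO_media (median 117), a log2 fold change of 0.45 (SE 0.0863, adjusted p = 0.00339). All 6 KO libraries lay above the WT range for Tap1, 5 of them closely together at 112 to 121 CPM. H2-T22 (0.30, SE 0.0759, adjusted p = 0.0268), B2m (0.19, SE 0.0458, adjusted p = 0.0205) and Tapbp (0.21, SE 0.0582, adjusted p = 0.0496) were also higher in KO_media, each with 6 of 6 libraries above WT_media. B2m, the most abundant of the 37 per length, lay between 2010 and 2284 CPM in WT_media (median 2214) and between 2321 and 2705 CPM in KO_media (median 2450).

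**Figure D4:**
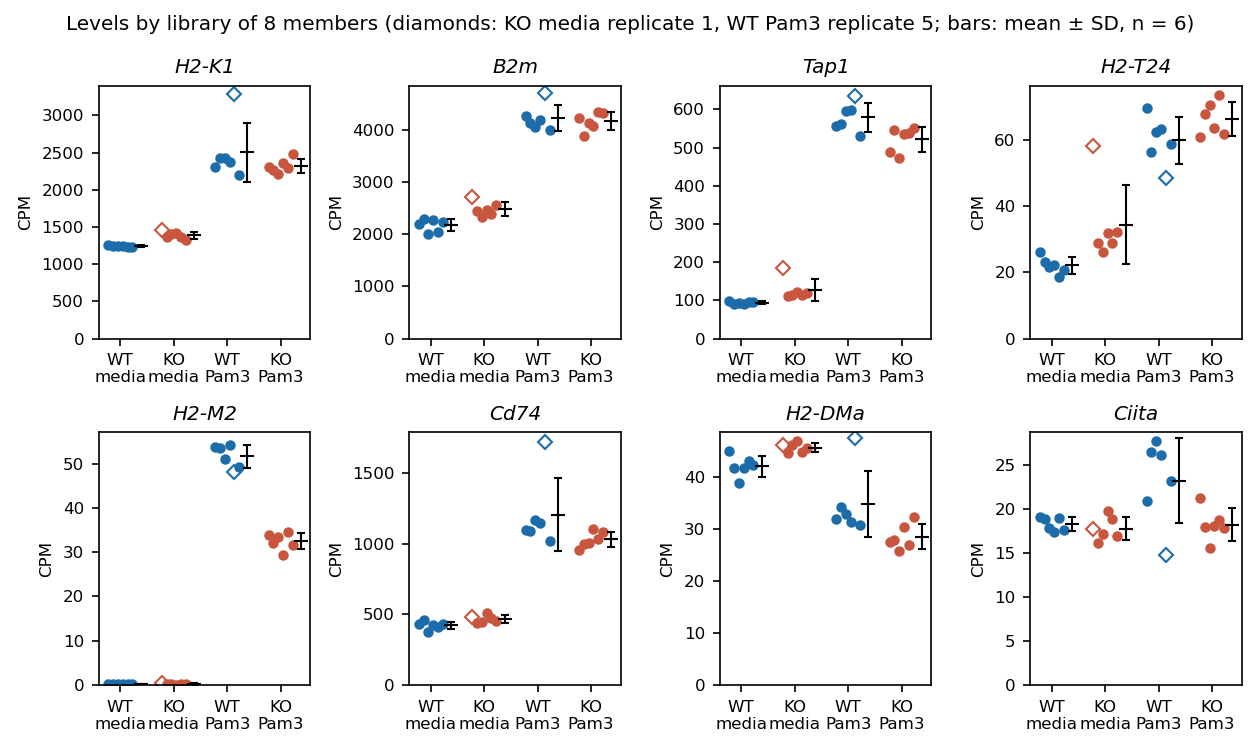
CPM of 8 genes in each library (points), with diamonds for KO_media replicate 1 and WT_Pam3 replicate 5 and bars for the mean ± SD (n = 6); each axis starts at 0. Tap1, B2m and H2-T24 separate the genotypes in media, H2-M2 separates them after Pam3, and the diamonds set much of the spread.

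The 3 immunoproteasome genes and Psme1 of PA28 had every KO_media library above WT_media without passing the test: Psmb9 0.31 (adjusted p = 0.0611), Psmb10 0.25 (adjusted p = 0.339), Psme1 0.24 (adjusted p = 0.159) and Psmb8 0.23 (adjusted p = 0.227). Psme2, the other PA28 gene, had 3 of 6 libraries above WT_media (0.16, adjusted p = 0.597). H2-K1 (0.16, adjusted p = 0.213) and Tap2 (0.15, adjusted p = 0.217) separated the groups in the same way. H2-K1 lay between 1224 and 1256 CPM in WT_media and between 1321 and 1464 CPM in KO_media, so the gap between the groups was wider than the WT range. The chaperones Calr (0.00), Canx (-0.03) and Pdia3 (0.05), and H2-D1 (0.04) and H2-M3 (0.05), gave values near 0. The spread of a gene was estimated over all 4 groups, so WT_Pam3 replicate 5 entered these tests as well.

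Without WT_Pam3 replicate 5, 15 class I genes were called higher in KO_media (H2-K1, H2-Q4, H2-Q6, H2-Q7, H2-T22, H2-T23, H2-T24, B2m, Tap1, Tap2, Tapbp, Psmb8, Psmb9, Psmb10 and Psme1), beside 4.52% of all genes. Without KO_media replicate 1 the count was 4 (H2-Q6, H2-T22, H2-T24 and Tap1), beside 1.51% of all genes. The log2 fold changes of H2-T24 and Tap1 were then 0.43 and 0.31 in place of 0.64 and 0.45, and H2-Q6, at 0.55, stood above H2-T24. H2-Q6, H2-T24 and Tap1 were called in each of the 24 runs that left out 1 library, H2-T22 in 22, B2m in 21 and Tapbp in 5. Leaving out WT_media replicate 3 or 5 left 3 calls, given here without a share of all genes.

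Interferon-stimulated genes were higher in the same libraries. Of a list of 27, 23 were called higher in KO_media (1.92% of all genes), with a median log2 fold change of 0.61. Without WT_Pam3 replicate 5 the count was 27 (4.52% of all genes), and without KO_media replicate 1 it was 20 with a median of 0.37 (1.51% of all genes). Their median log2 CPM was 5.15 to 5.61 in WT_media, 6.89 in KO_media replicate 1 and 5.72 to 6.19 in the other 5 KO_media libraries. Stat2, a signal transducer of the type I interferon receptor, was higher by 0.54 on the log2 scale (adjusted p = 0.00769), and by 0.34 without KO_media replicate 1 (adjusted p = 0.000365). Ifnb1, which encodes interferon beta, had 2 and 3 counts over the 6 libraries of WT_media and KO_media. Markers of other cells moved as well: 4 of 7 granulocyte markers (summed CPM 59.7 to 70.8 in WT_media and 81.6 to 94.2 in KO_media) and 5 of 7 stromal markers (35.3 to 45.7 and 48.6 to 87.4 CPM) were called higher, beside the same 1.92% of all genes. Without WT_Pam3 replicate 5 these counts were 5 and 5, and without KO_media replicate 1 they were 4 and 5. Their part in the class I difference was not tested.

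No class II gene passed the test between genotypes in media (edgeR, 0 of 12, with 0 at an unadjusted p under 0.05 and 0 by DESeq2, beside 3.03% of all genes). The median log2 fold change was 0.07 and no gene separated the groups. H2-Aa (0.07), H2-Ab1 (0.07), H2-Eb1 (0.12), Cd74 (0.15) and H2-DMa (0.12) were small positive values, and Ciita was -0.04. Without WT_Pam3 replicate 5, 2 were called higher (Cd74 at 0.15, adjusted p = 0.0221, and H2-Eb1 at 0.12, SE 0.0392, just inside the threshold), beside 4.52% of all genes called higher.

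**Figure D5:**
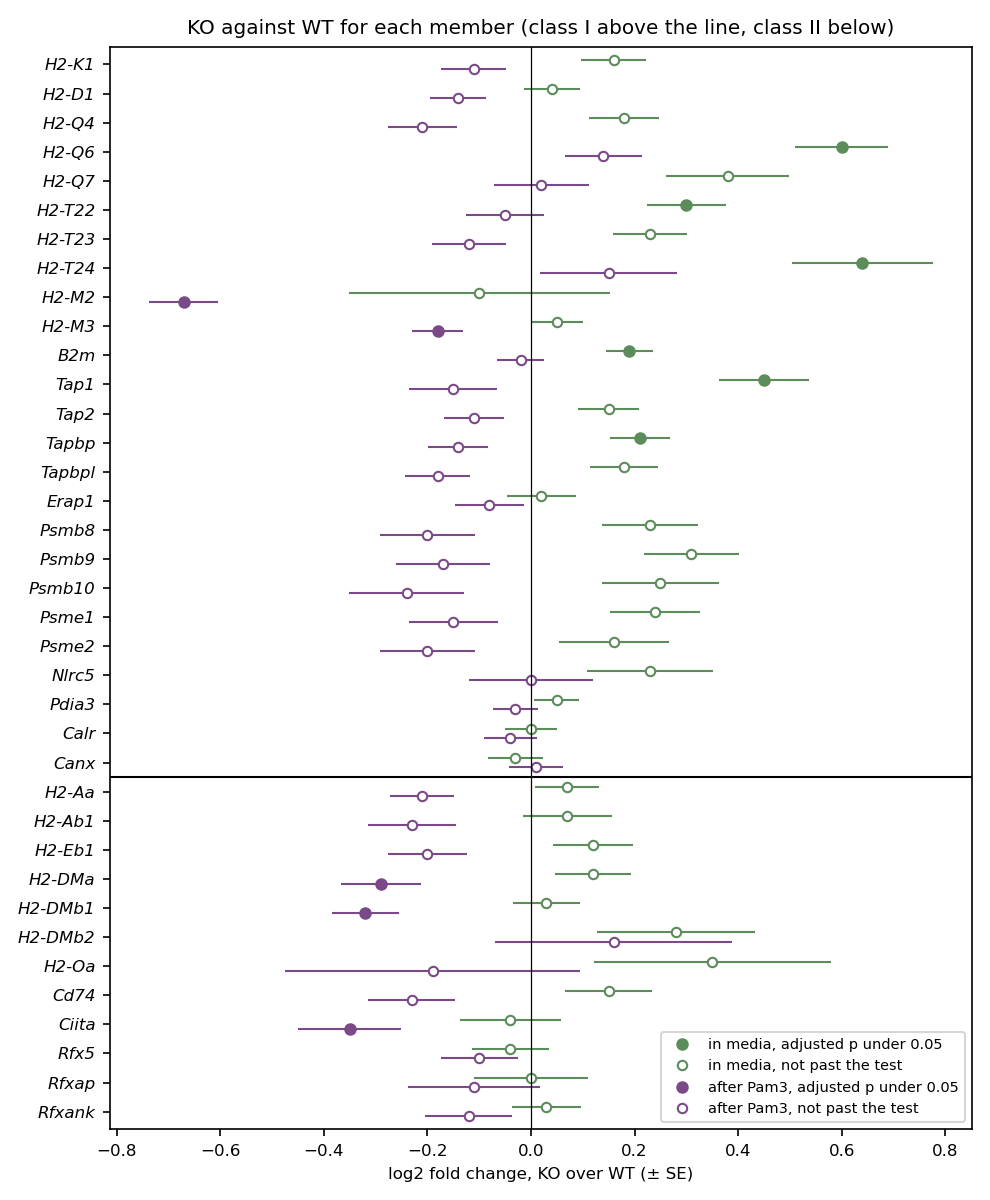
Log2 fold change of KO over WT for each gene, in media (green) and after Pam3 (purple), with standard errors; filled points passed the test. In media 6 class I genes are filled on the right, and after Pam3 5 genes are filled on the left.

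After Pam3 the genotype difference did not take that form. Among class I genes 2 of 25 were called lower in KO_Pam3 (2.75% of all genes) and the median log2 fold change was -0.12, with all genes at -0.01. H2-M2 had a log2 fold change of -0.67 (SE 0.0667, adjusted p = 7.11e-07), with the non-overlapping libraries given above, and was called in each of the 24 runs leaving out 1 library. H2-M3 lay between 77.4 and 99.2 CPM in WT_Pam3 (median 81.3) and between 71.1 and 79.6 CPM in KO_Pam3 (median 72.9), a log2 fold change of -0.18 (SE 0.0494, adjusted p = 0.0425). The groups overlapped in 1 KO library, and the call was kept in 5 of the 24 runs. The 6 genes called in media had values of 0.14 (H2-Q6), 0.15 (H2-T24), -0.15 (Tap1), -0.05 (H2-T22), -0.02 (B2m) and -0.14 (Tapbp), none past the test. The interferon-stimulated list had 0 of 27 genes called after Pam3 (0 at an unadjusted p under 0.05 and 0 by DESeq2).

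In the class II arm 3 of 12 genes were called lower in KO_Pam3 (2.75% of all genes), the median was -0.20, and 2 genes had all KO libraries below all WT libraries (1.63% of all genes). H2-DMb1 lay between 40.3 and 58.4 CPM in WT_Pam3 (median 42.6) and between 33.9 and 39.1 CPM in KO_Pam3 (median 35.4). The groups did not overlap, and the log2 fold change was -0.32 (SE 0.0647, adjusted p = 0.00355). H2-DMa lay between 30.8 and 47.6 CPM in WT_Pam3 (median 32.4) and between 25.9 and 32.4 CPM in KO_Pam3 (median 27.7), at -0.29 (SE 0.0769, adjusted p = 0.0316), with 5 of 6 KO libraries below WT. In a fit of only the 2 groups compared neither H2-DM chain passed (H2-DMb1 -0.31, adjusted p = 0.0894, and H2-DMa -0.27, adjusted p = 0.241), and H2-DMa also missed the threshold with library size only (adjusted p = 0.0817) and with no filter (adjusted p = 0.0900). Ciita lay between 14.8 and 27.8 CPM in WT_Pam3 (median 24.7) and between 15.6 and 21.3 CPM in KO_Pam3 (median 17.99), at -0.35 (SE 0.0994, adjusted p = 0.0445), and overlapped. H2-Aa separated the groups at -0.21 but did not pass (adjusted p = 0.0510), and H2-Ab1 (-0.23, adjusted p = 0.150), Cd74 (-0.23, adjusted p = 0.144) and H2-Eb1 (-0.20, adjusted p = 0.155) did not pass either.

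WT_Pam3 replicate 5 bears on these values. It lay above the 5 other WT_Pam3 libraries in 29 of the 37 genes and below them in 8 (Nlrc5, Erap1, Canx, Ciita, Rfx5, H2-T24, H2-M2 and H2-DMb2). The genes above had a median exon length of 2596 bases and those below of 5095; over all tested genes the medians were 2772 bases above and 6190 below. Without it 3 class I genes (H2-M2 -0.69, H2-M3 -0.12, Erap1 -0.16) and 5 class II genes (Ciita -0.45, H2-DMb1 -0.23, H2-DMa -0.18, Rfx5 -0.18, H2-Aa -0.13) were called lower in KO_Pam3, beside 5.67% of all genes, and H2-Q6 was called higher (0.21, beside 2.42% of all genes). The 2 H2-DM chains, Ciita, H2-M2 and H2-M3 were thus called with and without it. Without KO_media replicate 1, H2-M2, Tapbpl, H2-DMa and H2-DMb1 were called lower, beside 2.22% of all genes. Over the 24 runs H2-DMb1 was called in 24, H2-DMa in 10 and Ciita in 3.

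The response to Pam3 itself was compared between genotypes with the interaction, the KO response minus the WT response. Of the 37 genes 2 passed, Tap1 at -0.60 (SE 0.121, adjusted p = 0.0197) and Tapbp at -0.35 (SE 0.0821, adjusted p = 0.0408), both of class I and both with a smaller rise in KO; 0.589% of all genes were called lower and 0.762% in either direction. The media medians of Tap1 were 94.3 CPM in WT and 117 CPM in KO, and the Pam3 medians 578 and 538 CPM, so the genotypes were apart in media and close after Pam3. For Tapbp the medians were 443 and 486 CPM in media and 1754 and 1553 CPM after Pam3. The sign was negative in 24 of 25 class I genes (median -0.35) and in 12 of 12 class II genes (median -0.30), with all genes at -0.02. In the class II arm 0 of 12 genes passed in edgeR, 7 had an unadjusted p under 0.05, and DESeq2 called 3. The unadjusted and DESeq2 counts are given here without a share of all genes.

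The interaction count rested on single libraries. Without WT_Pam3 replicate 5, 10 class I genes (H2-K1, H2-Q4, H2-Q6, Tap1, Tapbp, Tapbpl, Psmb8, Psmb9, Psmb10, Psme1) and 6 class II genes (H2-Aa, H2-Eb1, H2-DMa, H2-DMb1, Cd74, Ciita) were called lower, beside 3.03% of all genes. Without KO_media replicate 1 the calls were Tap1, Tapbp and Tapbpl, beside 0.666% of all genes called lower. Without WT_Pam3 replicate 6 there were 5 class I and 2 class II calls, given here without a share of all genes. Without WT_media replicate 3 none of the 37 was called, with Tap1 at an adjusted p of 0.0518. Tap1 was called in 23 of 24 such runs and Tapbp in 6. In the interferon-stimulated list 9 of 27 genes had a smaller response in KO (0.589% of all genes). The count was 26 without WT_Pam3 replicate 5 (3.03% of all genes) and 17 without KO_media replicate 1 (0.666% of all genes).

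Upstream of both arms, Irf1, an interferon- and NF-kB-responsive activator of class I genes, lay between 803 and 994 CPM in WT_Pam3 (median 927) and between 692 and 811 CPM in KO_Pam3 (median 716). Only 1 KO library reached the WT range, the log2 fold change was -0.33 (adjusted p = 0.00213), and its interaction was -0.53 (adjusted p = 0.00904). Both calls held without WT_Pam3 replicate 5 (-0.30 and -0.50) and without KO_media replicate 1 (-0.31 and -0.43). In media Irf1 was not called between genotypes with all libraries. It was called higher in KO_media without WT_Pam3 replicate 5 (0.20, adjusted p = 0.0226) and not without KO_media replicate 1 (0.13, adjusted p = 0.212). It was the single gene called lower after Pam3 among 20 tested upstream regulators (2.75% of all genes), and without WT_Pam3 replicate 5 there were 3 (5.67% of all genes). With Pam3, 18 of those 20 rose and 2 fell in each genotype (40.6% and 44.2% of all genes in WT, 40.2% and 44.8% in KO), the latter being Irf8, a macrophage transcription factor, and Ifngr1, a chain of the interferon-gamma receptor, named after its values were seen. Ifnb1, the interferon-beta gene, averaged 0.00750 CPM in WT_media, 0.0120 in KO_media, 0.944 in WT_Pam3 and 0.843 in KO_Pam3.

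Around the class II arm, 12 genes of lysosomal processing and surface turnover were followed. After Pam3, 5 were called lower in KO (2.75% of all genes): the cathepsins Ctsl (-0.15) and Ctsb (-0.18), the asparaginyl endopeptidase Lgmn (-0.15), the thiol reductase Ifi30 (-0.26), and Cd83 (-0.23), which protects class II molecules from turnover. Cd83 lay between 418 and 473 CPM in WT_Pam3 (median 448) and between 358 and 397 CPM in KO_Pam3 (median 379), with no overlap (adjusted p = 0.000296). Without WT_Pam3 replicate 5 the count was 7 (5.67% of all genes), with Ifi30 at -0.16 and Ctsl at -0.10. Without KO_media replicate 1 it was 3 (2.22% of all genes), and Ctsl (adjusted p = 0.0820) and Ifi30 (adjusted p = 0.0737) were not called. In media 1 of 12 was called higher (1.92% of all genes), the cathepsin Ctss, which cuts the invariant chain: it lay between 3142 and 3645 CPM in WT_media (median 3459) and between 3770 and 4030 CPM in KO_media (median 3880), at 0.19 (adjusted p = 0.0124), and it was called with either of the libraries that stood apart left out. Pam3 raised 3 and lowered 7 of the 12 in WT (40.6% and 44.2% of all genes), and raised 4 and lowered 8 in KO (40.2% and 44.8%). Ifi30 fell by 0.99 and 1.22 and Cd83 rose by 1.95 and 1.77 on the log2 scale.

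Of 7 further H2 genes that passed the filter, 3 rose and 1 fell with Pam3 in each genotype, which is near the share of all genes called higher (40.6% in WT, 40.2% in KO) and below that called lower (44.2% and 44.8%). The class I gene H2-T10 rose by 1.56 in WT and 1.38 in KO and the class II gene H2-Eb2 by 2.47 and 2.64. H2-K2 fell by 0.34 in WT and 0.70 in KO and was lower in KO after Pam3 at -0.46 (adjusted p = 0.0352), a call kept without WT_Pam3 replicate 5 (-0.38) and without KO_media replicate 1 (-0.44). The 10 genes of cross-presentation and endoplasmic reticulum folding split with Pam3 into 8 higher and 2 lower in both genotypes, beside those same shares, and 0 were called between genotypes in media or after Pam3 (0 at an unadjusted p under 0.05 and 0 by DESeq2 in both). Over the 17 standard proteasome genes, too, 0 were called between genotypes. At an unadjusted p under 0.05 there were 0 in media and 2 after Pam3, and DESeq2 called 0 in both. Without WT_Pam3 replicate 5, 1 of the 17 was called higher in KO after Pam3, beside 2.42% of all genes.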

How the data were processed

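The files list 52636 gene models per library. Per the file headers, the authors' counts are reads aligned uniquely to a gene model, without normalization, and the other column holds RPKM values that the authors adjusted by a size factor. Per the labels' protocols, RNA was column-purified with DNase digestion and sequenced single-end at 50 bp after a TruSeq RNA v2 preparation. The submitters' processing notes name GSNAP and GRCm38. GENCODE M21 gave symbols for 52403 models, and the other 233 held 0.0196% of reads; 1 symbol of the lists (H2-Ea) was not matched.

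Counts were fitted with edgeR 4.0.16 under R 4.3.3 (TMM factors, filterByExpr, quasi-likelihood F-test, 14435 genes, 24 libraries in 1 fit, no covariate, biological coefficient of variation 8.21%), with Benjamini-Hochberg adjustment over all genes of a comparison and a threshold of 0.05. A standard error (SE) is the fitted log2 fold change over the root of its F. CPM compare groups and not genes. Alternatives were relative log expression factors, library size only, DESeq2 1.42.0, no filter, only the groups compared, and each library left out. On simulated counts for KO against WT in media over 14435 genes, 30 of 50 genes changed 1.25-fold, 49 of 50 changed 1.5-fold and 50 of 50 changed 2-fold were recovered. Of 193 calls, 14 were false. All 4 groups were drawn at WT_media means, with no Pam3 response and no library set apart, and changed genes were picked above a count floor. The recovery therefore holds for that setting and may differ in the real libraries.

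All 37 genes could be named; of other lists, at most 4 genes per comparison with the smallest adjusted p, plus a set always allowed, which included Ninj1, Irf1, Psmb6, Psmb7, Ctss, Ifi30, Ifnb1 and markers. The result for 1 gene of that set is not reported here. The genes and lists were chosen with earlier results of these data known. Libraries were taken as labelled, and replicate numbers follow the order of deposition.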

Additional observations from a re-analysis of the deposited data

Results flagged for a closer look

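In groups of 6 libraries, a single library stood apart from the other 5, with a gap to its nearest neighbour above 0.625 of the group's range, in 35 of 148 gene-by-group sets, where chance alone flags about 1 in 20. WT_Pam3 replicate 5 was that library in 22 sets, KO_media replicate 1 in 12 and KO_Pam3 replicate 6 in the remaining set, Psmb8 at 377 CPM.

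In WT_Pam3 replicate 5 the classical heavy chains were the highest of their group (H2-K1 3290 CPM, H2-D1 4360 CPM), as were H2-T22 (137 CPM), H2-T23 (269 CPM) and H2-M3 (99.2 CPM). The proteasome genes Psmb8 (579 CPM), Psmb9 (134 CPM), Psmb10 (666 CPM), Psme1 (363 CPM) and Psme2 (193 CPM) and the chaperone Calr (971 CPM) were also highest there. In the class II arm it held the highest H2-Aa (338 CPM), H2-Ab1 (481 CPM), H2-Eb1 (261 CPM), H2-DMa (47.6 CPM), H2-DMb1 (58.4 CPM), Cd74 (1720 CPM) and Rfxap (10.3 CPM). Erap1 (134 CPM), Nlrc5 (278 CPM), Canx (516 CPM) and Rfx5 (14.6 CPM) were lowest there. The part of transcript length, RNA quality or library preparation in these values was not tested beyond the exon lengths given above.

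KO_media replicate 1 was the highest of its group in H2-T22 (69.5 CPM), H2-T23 (204 CPM), H2-T24 (58.2 CPM), Tap1 (184 CPM), Tap2 (89.7 CPM), Tapbp (650 CPM), Tapbpl (30.0 CPM), Psmb8 (139 CPM), Psmb9 (70.7 CPM), Psmb10 (103 CPM), Psme1 (98.1 CPM) and Nlrc5 (135 CPM). All 12 passed the gap rule above and are class I genes. Without that rule KO_media replicate 1 lay above its group in 25 of the 37 genes (19.8% of all genes). These include the class II gene H2-Ab1, at 130.0 CPM against at most 129.3 CPM in the others. The interferon-stimulated genes summed to 4788 CPM in that library and to 2191 to 2828 CPM in the other 5 of its group.

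The response to Pam3 differed between genotypes past the interaction test for Tap1 (-0.60) and Tapbp (-0.35).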

How the results depend on the processing

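No paired analysis was possible because replicate numbers only follow the order of deposition and the labels tie no library to another. For KO against WT in media, class I calls ranged from 3 to 15 with each library left out and class II calls from 0 to 2, and a fit of only the groups compared gave 14 and 2. After Pam3 the ranges were 1 to 4 and 1 to 5. Library size only and no filter each gave 1 and 1 there, without H2-M3 (-0.13 and -0.14), H2-DMa (-0.24 and -0.25) and Ciita (-0.30 and -0.32), and a fit of only the groups compared gave 1 (H2-M2) and 0, without H2-DMb1 as well. For the interaction the ranges were 0 to 10 and 0 to 6. DESeq2 gave 10 and 3, and library size only and no filter gave 1 class I call each, without Tapbp (-0.31 in both). In media Tapbp was lost with relative log expression factors (adjusted p = 0.0559) and without the filter (adjusted p = 0.0751). These counts are given without the share of all genes in each setting, and the cause of the changes was not tested.

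Pam3 calls ranged from 25 to 25 and 11 to 11 over the libraries left out, and DESeq2, the other factors, no filter and only the groups compared kept all 36 in each genotype. With library size only, log2 values reversed for H2-D1 (-0.17 in WT, -0.31 in KO), Pdia3 (-0.22, -0.25), H2-T23 in KO (-0.09), H2-DMb1 in KO (-0.08), Ciita in WT (-0.18) and Rfx5 in KO (-0.0032). That scale also moved the share of higher calls among all genes from 32.3% to 65.2% for KO against WT after Pam3 and from 22.7% to 38.6% for the interaction. Depth limits H2-M2 in media, H2-DMb2 and H2-Oa, which had 3 to 79 counts per library there.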

Other observations

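Class I-like genes, whose products pair with beta-2 microglobulin but serve other ligands, moved against the class I arm. All 4 that were tested fell with Pam3 in both genotypes (edgeR, adjusted p under 0.05), beside 44.2% of all genes called lower in WT and 44.8% in KO. Mr1, which presents vitamin B metabolites, lay between 17.7 and 21.6 CPM in WT_media (median 19.9) and between 1.34 and 2.43 CPM in WT_Pam3 (median 2.07), a log2 fold change of -3.30, and -3.34 in KO. Hfe, a regulator of iron uptake, changed by -2.67 in WT and -2.96 in KO, and its interaction of -0.29 passed the test (adjusted p = 0.0365) but not without KO_media replicate 1 (-0.27, adjusted p = 0.0666). Fcgrt, the neonatal Fc receptor, changed by -1.98 and -2.20, and Cd1d1, which presents lipids, by -1.06 and -1.09. Treated and untreated libraries of Mr1 and Hfe did not overlap in either genotype. Between genotypes 0 of the 4 passed (at an unadjusted p under 0.05, 1 in media and 2 after Pam3; by DESeq2, 1 in media and 0 after Pam3), and Hfe was called higher in KO_media without WT_Pam3 replicate 5 (0.15, adjusted p = 0.00298).

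Other genes of the class II route diverged as well: Sppl2a, the protease that clears the invariant chain stub, rose with Pam3 by 1.98 in WT and 1.91 in KO, while the cathepsins Ctsl (-0.66 and -0.75) and Ctsb (-0.41 and -0.56) fell.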
